A study of Mus musculus with 8 samples.

Results

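Acetylated intervals that were listed after EnPGC-1 treatment alone and lay deep inside genes are described here. H3K27ac, acetylation of lysine 27 on histone H3, was mapped by ChIP-seq in mouse CD8+ T cells, the cytotoxic T cells of the immune system. The tested cells had received EnPGC-1 for 48 h, and the comparison cells had received the vehicle DMSO for 48 h. The labels class EnPGC-1 among PIPs. Both groups were C57BL/6 CD8+ T cells from lymph node and spleen, activated with antibodies to CD3 and CD28. The 8 samples were 2 H3K27ac samples per treatment, 1 input per treatment and 2 IgG samples from DMSO-treated cells. The labels do not say whether samples of 1 treatment came from separate animals or cultures.

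The values were 2 interval lists on mm10, 1 per treatment, so replicate spread is unknown and the treatments could not be tested against each other. Ranges in brackets are exact 95% intervals and cover counting error only. Read depth is unknown here, so a longer list in one treatment cannot be told apart from deeper or cleaner sequencing of it. The members were chosen by their presence in the EnPGC-1 list and absence from the DMSO list: they were the distinct EnPGC-1 intervals on chromosomes 1 to 19 that overlapped no DMSO interval by 1 bp or more, overlapped the body of a protein-coding RefSeq gene, and lay more than 5 kb from both ends of every protein-coding gene. There were 74389 members among 247434 EnPGC-1 intervals. That difference between the lists is therefore a description and supports nothing.

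H3K27ac is placed by the acetyltransferases p300 and CBP and is found on the nucleosomes flanking active promoters and enhancers. Inside a gene, away from its ends, the mark is known at intronic enhancers, which may act on the host gene or on a neighbour, and at internal promoters, which start shorter transcripts or separate RNAs. In T cells, many enhancers of lineage and receptor genes lie in introns.

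Sequence within members could be read at annotated starts and at microRNAs. RefSeq promoter windows of 300 bases, 250 before and 50 after a start, gave 507 internal starts of protein-coding genes that a member overlapped. Of 16 such windows in genes of the lists described further on, 5 are printed to show their base composition. Beside them are 2 of the 45 windows of listed genes that no interval of either list touched. Both counts leave out the windows of a chromosome that was set aside. The 5 were picked after their values were seen, and the 2 were those lowest in G+C. Sequences are from RefSeq on GRCm38.p6 (coordinates as in mm10), 5′ to 3′ on the strand of the gene, and capitals mark CpG pairs. The member windows belong to Brd3, which encodes a reader of acetylated histones, Dab1, an adaptor of reelin signalling in neurons, Dgka, a diacylglycerol kinase that restrains T cell receptor signalling, Esrrg, an oestrogen-related receptor that partners with PGC-1, and Tox2, a transcription factor of activated T cells. The windows without an interval belong to Tcf12, which encodes an E protein, and Ncor1, a corepressor that binds HDAC3.
Brd3 (in a member, chr2:27475349-27475648, minus strand): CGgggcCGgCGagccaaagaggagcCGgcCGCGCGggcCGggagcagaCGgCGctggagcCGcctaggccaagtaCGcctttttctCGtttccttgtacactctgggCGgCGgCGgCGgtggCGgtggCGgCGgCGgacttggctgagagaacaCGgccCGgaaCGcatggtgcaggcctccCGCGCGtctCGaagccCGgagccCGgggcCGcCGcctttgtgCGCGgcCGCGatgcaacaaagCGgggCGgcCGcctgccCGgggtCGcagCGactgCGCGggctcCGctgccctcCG
Dab1 (in a member, chr4:104367288-104367587, plus strand): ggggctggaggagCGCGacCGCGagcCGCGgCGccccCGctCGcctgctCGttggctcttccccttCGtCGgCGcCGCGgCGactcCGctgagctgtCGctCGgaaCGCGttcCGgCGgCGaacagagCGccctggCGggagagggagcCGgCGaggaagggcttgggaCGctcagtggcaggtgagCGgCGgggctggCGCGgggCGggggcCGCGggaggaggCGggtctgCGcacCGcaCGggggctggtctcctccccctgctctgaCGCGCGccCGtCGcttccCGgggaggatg
Dgka (in a member, chr10:128737563-128737862, minus strand): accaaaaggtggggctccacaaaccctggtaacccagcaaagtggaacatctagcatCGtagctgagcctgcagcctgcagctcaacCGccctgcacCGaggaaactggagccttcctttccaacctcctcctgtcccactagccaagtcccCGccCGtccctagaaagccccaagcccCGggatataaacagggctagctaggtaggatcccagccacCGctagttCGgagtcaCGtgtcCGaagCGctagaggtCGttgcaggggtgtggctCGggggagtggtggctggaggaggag
Esrrg (in a member, chr1:187997577-187997876, plus strand): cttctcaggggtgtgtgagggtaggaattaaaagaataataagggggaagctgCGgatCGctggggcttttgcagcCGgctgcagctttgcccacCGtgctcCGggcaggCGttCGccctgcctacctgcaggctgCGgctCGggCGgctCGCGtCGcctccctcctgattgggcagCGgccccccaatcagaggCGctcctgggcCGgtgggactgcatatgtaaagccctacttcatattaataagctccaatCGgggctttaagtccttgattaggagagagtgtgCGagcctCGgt
Tox2 (in a member, chr2:163225203-163225502, plus strand): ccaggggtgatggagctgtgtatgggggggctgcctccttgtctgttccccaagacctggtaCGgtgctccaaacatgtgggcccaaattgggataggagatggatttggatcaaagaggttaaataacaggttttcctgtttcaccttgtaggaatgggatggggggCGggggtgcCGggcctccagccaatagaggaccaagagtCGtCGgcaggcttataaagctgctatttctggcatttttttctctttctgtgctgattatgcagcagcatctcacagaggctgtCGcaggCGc
Tcf12 (no interval, chr9:71896047-71896346, minus strand): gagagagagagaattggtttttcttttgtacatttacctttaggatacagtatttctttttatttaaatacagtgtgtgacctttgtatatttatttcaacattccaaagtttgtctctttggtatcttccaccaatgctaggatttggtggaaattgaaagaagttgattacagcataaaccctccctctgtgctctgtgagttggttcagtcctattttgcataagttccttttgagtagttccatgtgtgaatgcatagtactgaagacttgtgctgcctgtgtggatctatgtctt
Ncor1 (no interval, chr11:62438466-62438765, minus strand): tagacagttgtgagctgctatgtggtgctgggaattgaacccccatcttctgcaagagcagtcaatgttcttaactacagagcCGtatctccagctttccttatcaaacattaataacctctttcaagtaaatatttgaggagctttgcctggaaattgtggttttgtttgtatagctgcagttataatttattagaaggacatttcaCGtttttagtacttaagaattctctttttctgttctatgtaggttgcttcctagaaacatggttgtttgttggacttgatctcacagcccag
The member windows of Brd3 and Dab1 held 46 CpG pairs each, with 75% and 77.3% G+C. The Dgka window held 13 CpG pairs at 60.7% G+C, the Esrrg window 19 at 60%, and the Tox2 window 7 at 53.3%. The Tcf12 window held 0 at 36.3% G+C and the Ncor1 window 2 at 38.3%. Over the listed gene windows that were counted, the 16 in members had a median of 60.5% G+C and 13.5 CpG pairs. The 45 without an interval had 47.3% and 4. The 16 include largely overlapping Tox2 windows in the same member, which start at 163225203 and 163225204. Among the 16, the lowest in G+C was that of Nrxn3, a synaptic adhesion gene, at 47.3%. There the member covered only 2 of the 300 bases. The members at the printed windows covered all 300 bases in Brd3, Dab1, Dgka and Tox2 and 191 bases in Esrrg. The Dab1 member was 2362 bp wide with 6 summits, and its nearest DMSO interval lay 13772 bp away. The Brd3 member was 1004 bp wide, with a DMSO interval at 2072 bp.

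Gene bodies and the space outside genes held similar numbers of EnPGC-1-only intervals, at different densities. The members were 39.2% (38.9 to 39.4) of the 189996 EnPGC-1-only intervals, which in turn were 76.8% of all EnPGC-1 intervals on these chromosomes. Of the others, 71295 lay outside genes and 44312 within 5 kb of a gene end. Deep gene body, meaning gene body more than 5 kb from every protein-coding gene end, came to 815 Mb. It held 9.12 (9.06 to 9.19) members per 100 kb. EnPGC-1-only intervals stood at 5.57 (5.53 to 5.61) per 100 kb in the 1280 Mb outside genes, and at 14.4 (14.2 to 14.5) in the 5 kb windows at gene ends. Outside genes here means more than 5 kb from every protein-coding gene, between the first and last EnPGC-1 interval of a chromosome. Noncoding genes can lie in that space. Intervals of the DMSO list followed the same order, with 3.98, 1.82 and 7.81 per 100 kb in deep gene bodies, outside genes and at gene ends. The members covered 42.9 Mb, or 5.26% of the deep gene body. Of the EnPGC-1 intervals in deep gene bodies, 76.3% had no DMSO overlap, close to the 76.8% over all places.

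Most members were narrow. Their median width was 467 bp, with quartiles of 350 and 672 bp, against 433 bp for EnPGC-1-only intervals outside genes and 516 bp for those at gene ends. The 23096 EnPGC-1 intervals of deep gene bodies that overlapped a DMSO interval were wider, with a median of 705 bp, though a wider interval has more bases with which to meet one. More than 1 summit was listed for 16.1% of members and for 37.8% of the shared intervals. A width of 1 kb or more was reached by 9.50% of members and 31.0% of shared intervals. Scores, taken as the −log10 of a q-value and compared within the EnPGC-1 list, had a median of 3.48 for members, the same as for EnPGC-1-only intervals outside genes, and 3.69 for shared intervals.

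Many members had a DMSO interval nearby. The median distance from a member to the nearest DMSO interval was 4624 bp, against 9793 bp for EnPGC-1-only intervals outside genes, and 15.7% of members lay within 1 kb of one. At the other extreme 6.39% lay more than 50 kb away. Requiring that no DMSO interval lay within 1 kb left 62739 members. Just inside the distance limit, 3464 members lay 5 to 6 kb from a gene end, with a median width of 491 bp. Just outside it, 3759 EnPGC-1-only intervals of gene bodies lay 4 to 5 kb from an end, with a median of 503 bp. Of the members, 277 lay within 50 bp of a DMSO interval, and 373 intervals missed membership through 1 to 50 bases of DMSO overlap.

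How many members were listed depended on the score. When the EnPGC-1 list was shortened to its 81522 highest scoring intervals, the length of the DMSO list, there were 22314 members at 2.74 per 100 kb. With each list limited to scores at or above its own median, there were 40959 members at 5.02 per 100 kb. Leaving out intervals under 500 bp gave 41557 members at 5.10 per 100 kb, and merging intervals within 1 kb gave 49461 at 6.07 per 100 kb.

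The members were spread over most genes with room for one. Of 20665 protein-coding genes, 12665 had at least 1 kb of deep body, and 9541 of these (75.3%, 74.6 to 76.1) held a member. Members and no DMSO interval were found in the deep body of 3079 genes (24.3%), both in 6462, DMSO intervals alone in 594, and neither in 2530. A gene held a median of 2 members, 154 genes held 50 or more, and the largest number was 228. Because overlapping genes share them, 397 members were counted in more than 1 gene. All counts of intervals per gene, here and below, are for the deep body and leave out intervals within 5 kb of a gene end.

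Longer genes held more members but, pooled over the genes of a class, fewer per kb. Genes under 20 kb held a median of 0 members, those of 20 to 50 kb 2, those of 50 to 100 kb 5, those of 100 to 200 kb 9, those of 200 to 500 kb 16, and the 216 genes of 500 kb or more 19. Pooled density over the same classes was 14.4, 13.4, 11.5, 10.5, 8.34 and 3.79 members per 100 kb of deep body. The median over single genes was 0 in genes under 20 kb, many of which held none, and 10.6, 8.47, 7.35, 5.47 and 2.41 per 100 kb in the longer classes. In the longest class the pooled density is 0.0379 members per kb (3.70 to 3.88 per 100 kb), 0.283 of the 0.134 per kb in genes of 20 to 50 kb (13.2 to 13.6 per 100 kb). The ratio was 0.184 when intervals under 500 bp were left out.

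DMSO intervals thinned out further with gene length than the members did. Their density was 7.93, 6.62, 5.30, 4.65, 3.23 and 1.23 per 100 kb over the same 6 classes. The number of members for each DMSO interval was therefore 1.82 in genes under 20 kb and 3.08 in genes of 500 kb or more. A member was held by 45.3% of genes under 20 kb, 76.5% of those of 20 to 50 kb and 100% of those of 500 kb or more. Across single genes the relation between length and density was weak overall and negative among long genes. Spearman's coefficient between gene length and members per 100 kb was 0.07 over all 12665 genes, where many short genes were at 0, and -0.21 over the 2313 genes of 100 kb or more. These genes share the same 2 lists, so the coefficients are descriptions.

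**Figure D1:**
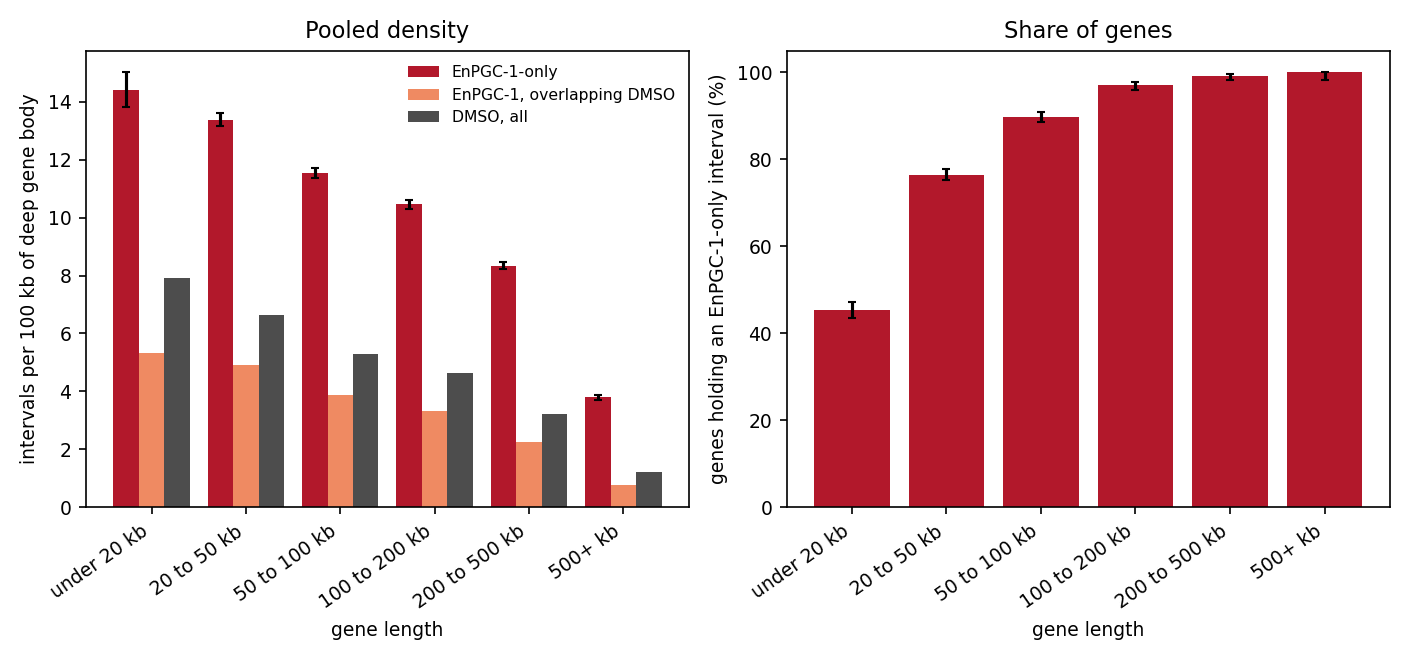
Left, members, shared EnPGC-1 intervals and DMSO intervals per 100 kb of deep gene body by gene length class; right, share of genes in each class that hold a member, with exact 95% intervals drawn on the members' bars. Members stand at 14.4 per 100 kb in genes under 20 kb and at 3.79 in genes of 500 kb or more, above both other kinds of interval in every class, while the share of genes holding one goes up from 45.3% to 100%.

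Gene length went together with how crowded the neighbourhood was. Genes were divided into 4 similar groups by the number of protein-coding genes with a midpoint within 500 kb, which was 0 to 7, 8 to 12, 13 to 20 and 21 to 71. Members per 100 kb were 6.09, 11.9, 14.5 and 16.0 over these groups, from sparse to crowded surroundings. The ratio of the most to the least crowded was 2.63, or 1.74 when intervals within 1 kb were merged. DMSO intervals rose more steeply, with 2.16, 5.30, 7.35 and 8.77 per 100 kb over the same groups. The number of members for each DMSO interval went down from 2.82 in the least crowded group to 1.83 in the most crowded. Of the 216 genes of 500 kb or more, 212 were in the least crowded group. Within that group the density of members was 8.61 in genes under 20 kb, 7.98 in genes of 100 to 200 kb, 6.69 in genes of 200 to 500 kb and 3.74 in the longest. Within the next group it was 12.1 in genes under 20 kb and 12.2 in genes of 200 to 500 kb, and within the third 14.3 and 16.9. In the most crowded group it was 17.6 in genes under 20 kb and 11.24 in the 20 genes of 200 to 500 kb. The part of length and the part of crowding in the density were not tested.

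**Figure D2:**
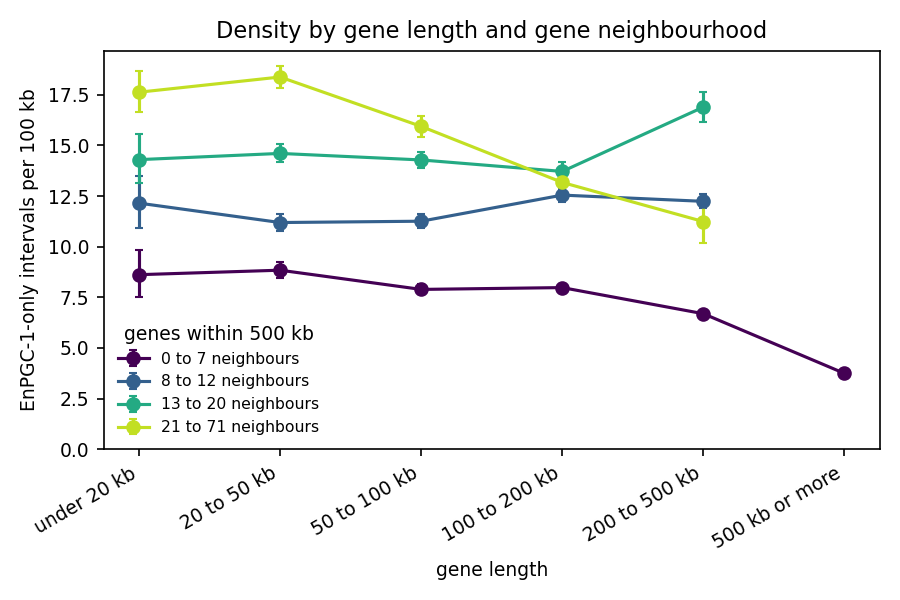
Members per 100 kb of deep gene body by gene length class, with 1 line for each of 4 groups by gene crowding, exact 95% counting intervals, and classes of under 10 genes left out. The least crowded group lies lowest, between 8.84 and 3.74 per 100 kb, and the next group stays between 11.19 and 12.55 in the classes up to 500 kb.

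The chromosomes differed in the same measure. Density was highest on chromosomes 11, 7 and 17, with 12.3, 11.8 and 11.4 members per 100 kb of deep gene body. It was lowest on chromosomes 3 and 1, with 6.27 and 7.05. DMSO intervals were also densest on chromosome 11 and sparsest on chromosome 3, at 5.96 and 2.10 per 100 kb.

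Inside genes the members were denser toward the 3' end. Distances were measured in 3678 genes of 50 kb or more with a known strand, each base being assigned to its nearer end. At 5 to 10 kb from the 3' end the density was 12.504 (11.99 to 13.03) members per 100 kb, against 9.10 (8.66 to 9.55) at the same distance from the 5' end. At 20 to 50 kb the values were 10.9 and 9.63, and at 50 to 100 kb, where 1772 genes reached, 8.63 and 7.86. Beyond 200 kb, with 259 genes left, they were 3.43 and 3.25. DMSO intervals had the same lean, with 6.32 per 100 kb at 5 to 10 kb from the 3' end and 3.94 at that distance from the 5' end. The farther distances hold only the longer genes, so the decline with distance also contains the decline with length.

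**Figure D3:**
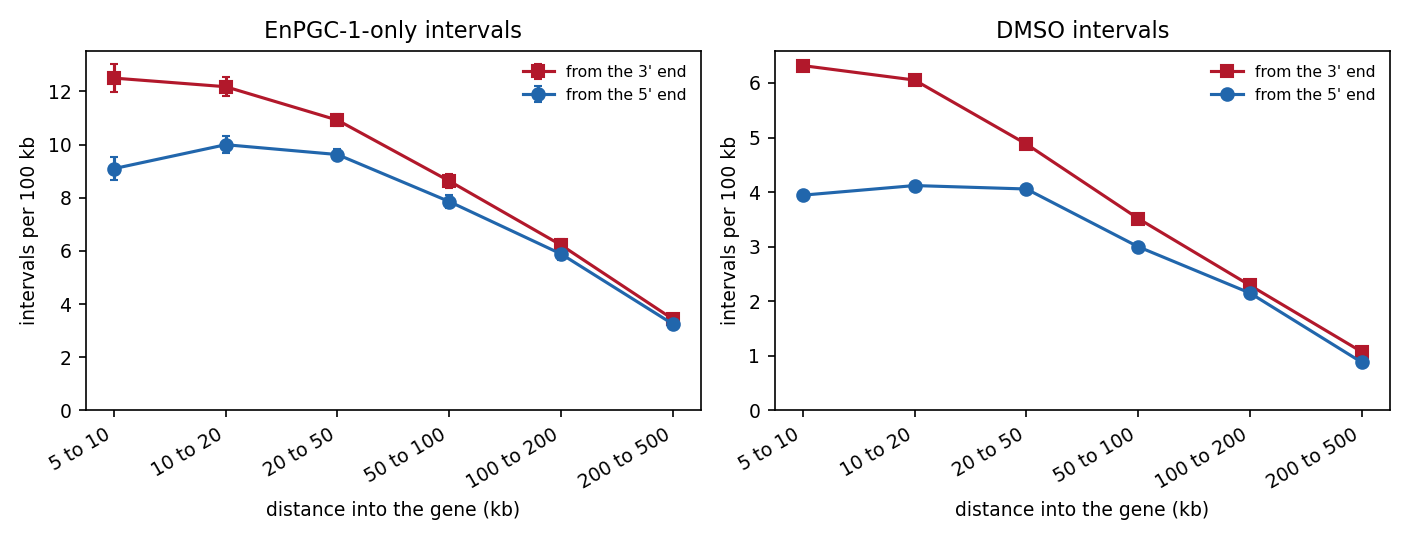
Members (left, with exact 95% counting intervals) and DMSO intervals (right) per 100 kb, by distance from the 3' end and from the 5' end, in 3678 genes of 50 kb or more. At 5 to 10 kb the members stand at 12.504 near 3' ends and 9.10 near 5' ends, and the lines draw together beyond 100 kb.

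Annotated starts inside deep gene bodies were covered by members more often than deep gene body taken over all genes. A member overlapped 507 of 2013 internal starts of protein-coding genes (25.2%, 23.3 to 27.1), in 441 genes and through 473 distinct members. By comparison 8.00% of 300-base tiles of the deep gene body overlapped a member. These tiles came from all deep gene body, with or without an internal start, so the surroundings of the starts were not compared. Shared intervals overlapped 362 of these starts (17.98%), against 3.62% of tiles, and 1063 starts were touched by no interval of either list. Internal starts of long noncoding RNAs were covered by members at 402 of 2088 (19.3%, 17.6 to 21.0). With the EnPGC-1 list shortened to the length of the DMSO list, members covered 9.49% of protein-coding internal starts, and the tile share was 2.69%.

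The internal starts inside members were richer in G+C and CpG than those without an interval. Median G+C was 56.0% in protein-coding windows in members and 48.0% in windows without an interval, and the median number of CpG pairs was 8 and 5. Protein-coding windows in shared intervals had medians of 58.2% and 9.5 CpG pairs. The 68 overlapped by a DMSO interval alone had 58.3% and 15.5. Richness in G+C and CpG was thus not particular to members. For noncoding RNAs the median G+C was 52.7% in members and 45.7% in windows without an interval. When all 4101 internal windows were ranked by G+C and divided into 5 bins, members covered 4.00%, 11.4%, 24.3%, 40.1% and 31.4% of them from the poorest to the richest. Shared intervals covered 0.485%, 4.04%, 11.6%, 28.2% and 30.2%. Coverage by members was therefore highest in the second-richest bin, between 52.7% and 58.3% G+C.

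**Figure D4:**
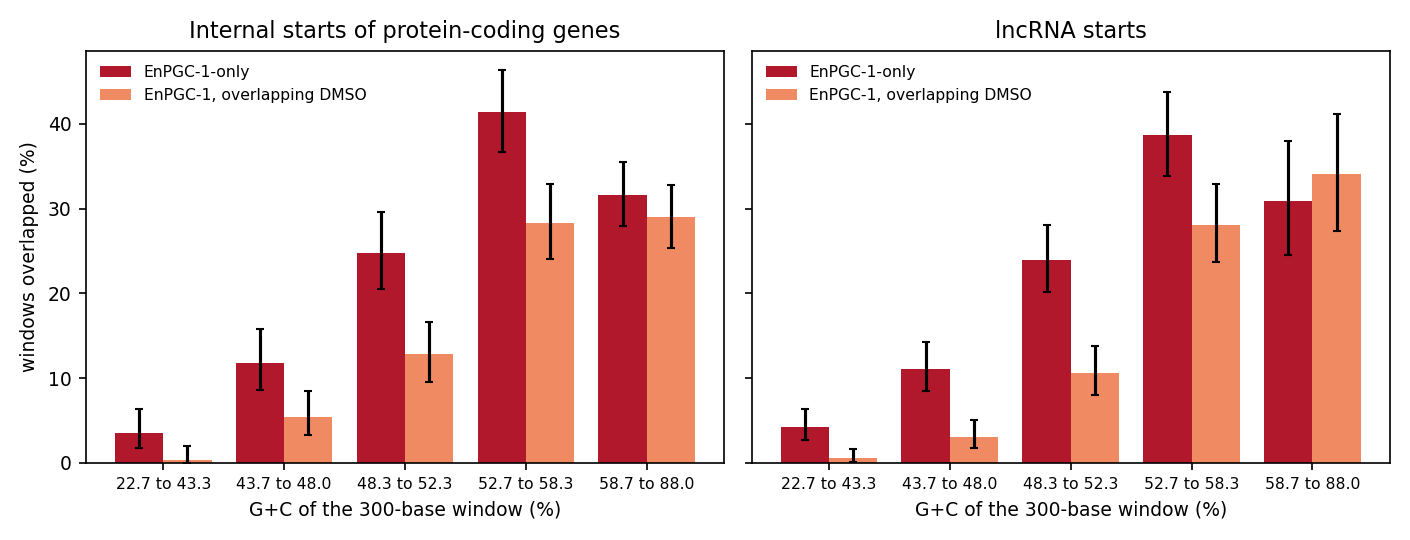
Share of internal start windows overlapped by members and by shared EnPGC-1 intervals, by G+C of the 300-base window, for protein-coding genes (left) and long noncoding RNAs (right), with exact 95% binomial intervals. Members cover 3.51% of the poorest and 41.4% of the second-richest protein-coding windows, and 4.26% and 38.7% of the noncoding ones.

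Short motifs of known factor families were searched on both strands of the same windows, as letters only. GGGCGG, the GC box bound by SP and KLF proteins, was in 42.8% of protein-coding windows in members, in 23.6% of windows without an interval, and in 35.7% of all 32851 promoter windows. TATAAA, the TATA box, was in 6.31% of member windows, 17.2% of windows without an interval and 13.6% of all windows. CACGTG, an E-box, was in 7.10%, 4.05% and 7.15%. Protein-coding windows in shared intervals held GGGCGG in 43.4%, TATAAA in 4.97% and CACGTG in 6.63%. In the 68 windows overlapped by a DMSO interval alone the shares were 51.5%, 5.88% and 0%. The shares of GGGCGG and TATAAA were thus not particular to members. GGGCGG holds no A or T and TATAAA no G or C, and the part of base composition in these shares was not tested. The shares of the other motifs follow for windows in members and windows without an interval. TGANTCA, bound by AP-1, was in 9.27% and 8.94%, against 7.81% of all windows. GGAAGT, bound by ETS proteins, was in 21.5% and 21.3%, against 23.8% of all. TGTGGT, bound by RUNX proteins, was in 14.4% and 18.3%, against 16.8% of all. TGACGTCA, the cAMP response element, was in 0.789% and 1.22%, against 1.79%. TCAAGGTCA, bound by oestrogen-related receptors, was in 0.197% and 0.564%, against 0.423%.

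MicroRNA hairpins in deep gene bodies were also covered more often than the tiles. Members overlapped 61 of 345 hairpins (17.7%, 13.8 to 22.1), against 6.17% of 100-base tiles, and shared intervals overlapped 63 (18.3%), against 3.04% of tiles. DMSO-only intervals overlapped 3. A pair of these hairpins is shown, chosen after the overlaps were known: Mir342, inside Evl, a gene of actin dynamics in T cells, and Mir326, inside Arrb1, which encodes beta-arrestin 1. Mature sequences are from RefSeq on GRCm38.p6, plus strand, with the seed, bases 2 to 8, in capitals.
mmu-miR-326-3p (chr7:99552328-99552348): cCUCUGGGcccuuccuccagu
mmu-miR-326-5p (chr7:99552288-99552311): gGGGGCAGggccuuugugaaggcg
mmu-miR-342-3p (chr12:108658680-108658702): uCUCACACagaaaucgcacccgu
mmu-miR-342-5p (chr12:108658638-108658659): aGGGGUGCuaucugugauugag
The 4 seeds were all different. The member over Mir342 was at chr12:108658648-108658942, with a DMSO interval 677 bp away. The member over Mir326 spanned chr7:99551963-99552365, and the nearest DMSO interval was 2014 bp away. Evl held 17 members and 11 DMSO intervals, and Arrb1 held 15 members and 15 DMSO intervals.

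The 10 genes with most members were all long, from 440 to 1185 kb. Camta1, a calmodulin-binding transcription activator, held 228 members, 97 shared intervals and 132 DMSO intervals in 780 kb of deep body, or 29.2 members per 100 kb. No member in Camta1 was more than 10 kb from a DMSO interval. Cdh13, which encodes T-cadherin, held 185 members and 59 DMSO intervals at 15.7 members per 100 kb, and 80 of its members lay more than 10 kb from any DMSO interval. The pair shows that a high count came with DMSO intervals close by in one gene and farther off in another. Nav2, a neuron navigator gene, held 150 members and 82 DMSO intervals. Wwox, an oxidoreductase gene at a fragile site, held 144 members and 63 DMSO intervals. Cdh4, encoding R-cadherin, held 138 and 73, and the adhesion gene Sdk1 held 136 and 53. The remaining genes of the leading 10 were Csmd2, the Arf GTPase-activating gene Agap1, the postsynaptic scaffold gene Shank2 and the homeobox gene Zfhx3, with 131, 125, 120 and 120 members. All 10 held at least 49 DMSO intervals.

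The densest genes were other, shorter ones. Among 3910 genes with 50 kb or more of deep body, Arhgef17 led with 23 members at 43.9 per 100 kb, beside 5 DMSO intervals. Smurf1, a ubiquitin ligase of the TGF-beta pathway, held 34 members at 42.8 per 100 kb, beside 11 DMSO intervals. Acacb, the acetyl-CoA carboxylase whose product malonyl-CoA restrains fatty acid entry into mitochondria, held 40 members at 42.4 per 100 kb, beside 19. The members covered 31.5% of the deep body of Arhgef17, 25.4% of that of Smurf1 and 24.6% of that of Acacb. Tmem63c, the calcium channel gene Cacna1i, Tmco4, the cyclic nucleotide-gated channel gene Cngb1, the myosin gene Myh14, Crocc2 and the dicarboxylate transporter gene Slc13a3 followed, at 41.3 down to 39.7 per 100 kb.

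Few long genes were without a member. Of the 3910 genes, 184 held none, and 133 of these held no DMSO interval either. The 5 with the longest bodies were Mei4, which acts in meiotic DNA breaks, Gm4724, the helicase gene Ascc3, Angpt1, a ligand of the endothelial receptor TIE2, and the neural adhesion gene Chl1. Mei4 and Ascc3 held 2 DMSO intervals each and the other 3 held none. A gene with no interval in these counts may hold listed intervals near its ends, which the counts leave out. It may also be acetylated below the level that the lists could show.

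Members often stood in runs. The median gap between neighbouring members was 3991 bp, against 6648 bp between EnPGC-1-only intervals outside genes, and 18.9% of members had the next within 1 kb, against 13.4%. The next lay within 12500 bp for 74.3% of members, against 63.0% of EnPGC-1-only intervals outside genes. At 9.12 members per 100 kb that distance links many neighbours through density alone, and clustering beyond density was not tested. Joining members within 12500 bp inside 1 gene gave 10907 runs of 2 or more, of which 1679 held 10 or more and 244 spanned over 100 kb. The longest lay in Cdh13, at 455 kb with 98 members. Agap1 followed with 378 kb and 115 members, the zinc transporter gene Slc39a11 with 357 kb and 107, the Rac exchange factor gene Tiam1 with 343 kb and 98, and Camta1 with 341 kb and 101. The members covered 11.7% of the Cdh13 run and 22.2% of the Camta1 run, so the runs were rows of separate intervals.

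The widest members were in genes of several tissues. The widest was in Rbfox3, a neuronal splicing factor gene, at chr11:118537432-118542752, with 5321 bp and 8 summits. Sulf2, a heparan sulfate sulfatase gene, held one of 4998 bp, and Smad6, an inhibitory SMAD gene, one of 4539 bp. Scube3 and Zfhx2 held members of 4223 and 4011 bp. The most summits were in the members of Rbfox3 and the sodium-proton exchanger gene Slc9a5, with 8 each, followed by Cnnm4, Sdk2 and Klc1 with 7 each. All of these members had a DMSO interval within 6 kb. Only 60 members were 3 kb wide or more.

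The highest scores stood elsewhere. Sfi1, a centriole gene on chromosome 11, held the top 3, with scores of 102.8, 51.2 and 46.8 and widths of 479, 319 and 285 bp. The next were in the overlapping genes Gm38510 and C130026I21Rik, at 30.3, and in the zinc finger gene Zfp600, at 26.7. Zfp600 belongs to a family of near-identical zinc finger genes, where reads from copies cannot be told apart. How reads from repeated sequence were treated is not given here, so scores this high are uncertain. For comparison, 95% of members scored below 6.45.

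Gene lists of T cell and metabolic pathways were set against all genes, in which 75.3% held a member, the median density was 8.14 and the pooled density 9.10 per 100 kb. The lists were chosen with earlier results of these data known, and their values are descriptions. DMSO intervals were pooled at 3.97 per 100 kb over all genes and at 6.00 in T cell receptor signalling, so both kinds of interval lay above all genes there. For the lists that follow it, in the order of the text, pooled DMSO density was 5.32, 4.51, 4.67, 5.63, 3.14, 4.97, 0.860, 5.02 and 4.01. Genes of T cell receptor signalling held a member in 23 of 23 genes with deep body, with a median of 19.6 and a pooled density of 13.4 per 100 kb. Their median length was 71.7 kb, and 89.8% of all genes of 50 to 100 kb held a member. Vav1, a Rac exchange factor downstream of the receptor, held 12 members and 2 DMSO intervals, and Ubash3a, a phosphatase that restrains the receptor, held 11 and 3. Nfatc1 and Nfatc2, the calcium-driven transcription factors of activation, held 28 and 33 members beside 25 and 30 DMSO intervals. Zap70, the kinase that binds the receptor's zeta chain, held 3 members and 0 DMSO intervals. Members and no DMSO interval were found in 6 of the 23 genes, against 24.3% of all genes. The lowest density was in Themis, a thymocyte selection gene, with 1 member in 205 kb.

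T lineage transcription factor genes held a member in 22 of 22, with a median of 11.3 and a pooled density of 11.7 per 100 kb. Their median length was 99.2 kb. Over all genes, 89.8% of those of 50 to 100 kb and 97.1% of those of 100 to 200 kb held a member. Tcf7, which encodes TCF1, was densest, with 11 members at 41.5 per 100 kb and 2 DMSO intervals. Bcl11b, which keeps T cell identity, held 24 members and 18 DMSO intervals. Tbx21, which encodes T-bet, held 3 members and Gata3 held 5, each with 0 DMSO intervals in the deep body. Members and no DMSO interval were found in only 3 of the 22 genes, against 24.3% of all genes. Tcf12 was lowest, with 2 members in 258 kb. Among costimulation and cytokine receptor genes 20 of 23 held a member, at a median of 11.7 and a pooled 11.5 per 100 kb. The integrin gene Itgal held 12 members at 41.4 per 100 kb, beside 2 DMSO intervals. The integrin gene Itga4 held no interval of either list in its 67.1 kb of deep body. Il7r and Ifngr1 also held none, in 13.8 and 8.28 kb.

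Genes of the PGC-1 network held a member in 21 of 25. Their median of 10.5 per 100 kb lay above that of all genes, and their pooled density of 8.86 below the pooled 9.10. Ppargc1a, which encodes PGC-1 alpha, the coactivator that drives mitochondrial biogenesis, held 19 members, 3 shared intervals and 8 DMSO intervals in 652 kb. Its density was 2.92 members per 100 kb, against a pooled 3.79 and a median of 2.41 per gene (quartiles 1.23 and 5.11) over genes of 500 kb or more, so it lay within the middle range of its length class. The 19 were narrow, with a median of 403 bp and a largest width of 678 bp, and 14 of them lay more than 10 kb from any DMSO interval. The highest scoring, at 12.4, spanned chr5:51775682-51776013. Ppargc1b, which encodes PGC-1 beta, held 28 members and 14 DMSO intervals at 28.2 per 100 kb. Among nuclear receptors that PGC-1 coactivates, Esrrb held 41 members beside 20 DMSO intervals, Esrrg 53 beside 15, and Ppard 17 beside 14. Ppara held 9 beside 6, and Pparg 1 beside 1. Rxra, another nuclear receptor gene of the list, held fewer members than DMSO intervals, with 15 beside 29. In this order of the 6 genes, members per 100 kb were 27.2, 8.89, 29.0, 14.5, 0.837 and 19.5. Mef2d, a transcription factor gene of muscle and T cells, was densest in the list, at 34.7 per 100 kb. Esrra, Tfam, Tfb1m and Sirt1 held no interval of either list in their deep bodies. Those were short, at 1.02, 2.86, 17.7 and 10.03 kb, and the part of their length in this absence was not tested.

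Fatty acid oxidation genes held a member in 17 of 19, with a median of 17.7 per 100 kb and a pooled density of 16.3. Cpt1a, the gate of fatty acid entry into mitochondria, held 14 members, 10 shared intervals and 12 DMSO intervals. Acsl6, an acyl-CoA synthetase gene, held 16 members and 4 DMSO intervals at 31.4 per 100 kb. Etfa, a subunit of the electron transfer flavoprotein, held no interval of either list in its deep body. These genes had a median length of 32.5 kb, close to the 35.4 kb over all genes. The pooled 9.10 over all genes is weighted by deep body, so long genes count for more in it. All genes of 20 to 50 kb had a pooled density of 13.4 and a median of 10.6 per 100 kb.

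Genes of mitochondrial dynamics and quality control held a member in 16 of 22, at a median of 8.47 and a pooled 8.54 per 100 kb. The fusion gene Mfn2 held 8 members at 37.5 per 100 kb, and Spg7, a subunit of a mitochondrial protease, held 6 at 26.97. The fission gene Dnm1l held no interval of either list in its deep body. Genes of chromatin acetylation and its readers held a member in 18 of 21, at a median of 5.21 per 100 kb. That median lay below that of all genes, and the pooled density of 8.89 was close to 9.10. The median length in this list was 83.8 kb. All genes of 50 to 100 kb had a median of 8.47 members per 100 kb, and those of 100 to 200 kb 7.35. The part of length in the low median was not tested. The deacetylase gene Hdac5 led at 32.8 per 100 kb, with 8 members beside 9 DMSO intervals. Hdac9, another deacetylase gene, held 14 members in 860 kb. Of the acetyltransferases of this mark, Ep300 held 1 member and Crebbp held 5.

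Members were also held by genes of other tissues and by very long genes. The list of very long neuronal and adhesion genes held one in 32 of 32, as did 100% of all genes of 500 kb or more. It also includes genes of other kinds, such as the oxidoreductase gene Wwox. Its median length was 1137 kb, its median density 1.19 per 100 kb and its pooled density 2.69. Wwox and Cdh13 stood far above the rest of that list, at 15.9 and 15.7 per 100 kb, and the next was Auts2 at 8.03. The axon guidance receptor gene Dcc was lowest, with 4 members at 0.368 per 100 kb. Muscle and liver genes held a member in 20 of 22, with a median of 9.24 and a pooled density of 12.2. There the muscle calcium release channel gene Ryr1 held 39 members at 34.9 per 100 kb beside 14 DMSO intervals, and the liver factor gene Hnf4a held 15 at 26.7 beside 6. The urea cycle gene Cps1 held no interval of either list in its deep body.

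Of all genes of 50 to 100 kb, 89.8% held a member. B cell and myeloid markers, with a median length of 55.9 kb, held one in 13 of 13 genes with deep body. Their median of 9.04 per 100 kb lay above that of all genes, and their pooled density of 7.12 below the pooled 9.10. Pax5, the B cell identity factor, held 42 members beside 34 DMSO intervals, so the DMSO list also marked it. Itgam, a myeloid integrin gene, held 6 members and 0 DMSO intervals, and the B cell adaptor gene Bank1 held 1 and 0. Members and no DMSO interval were found in 6 of the 13 genes, against 24.3% of all genes. Over the list there were 87 members, 30 shared intervals and 49 DMSO intervals, and the part of other cell types in these intervals was not tested.

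**Figure D5:**
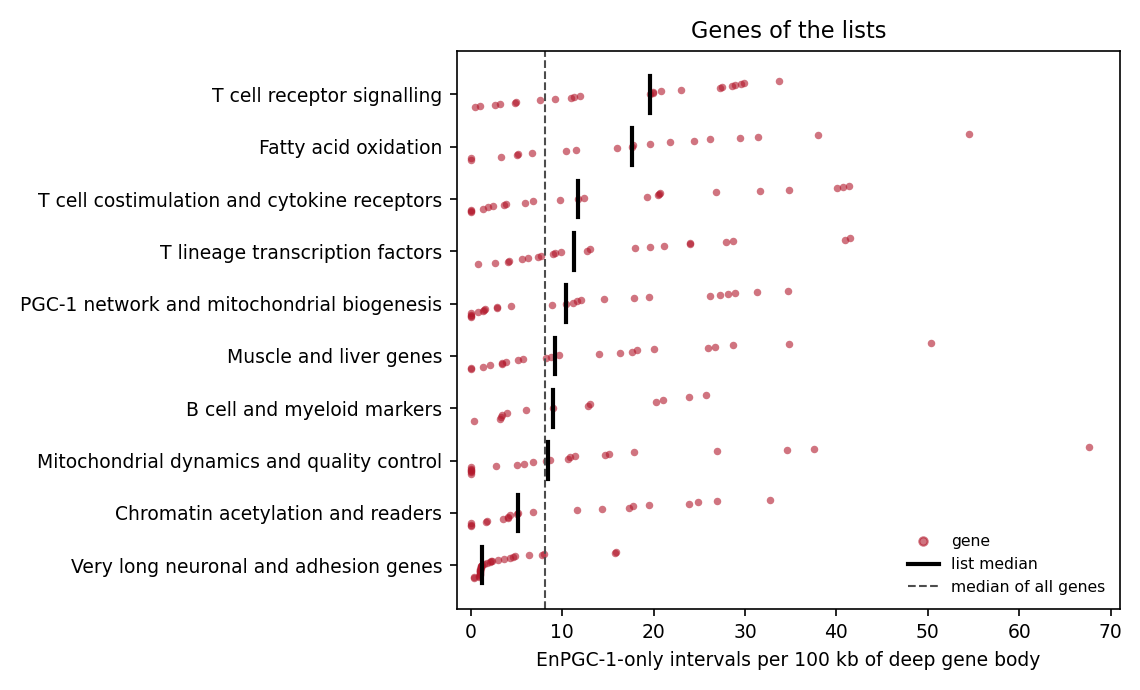
Members per 100 kb of deep body for each gene of 10 lists, 1 point per gene, with the list medians and the median over all genes. The medians run from 19.6 in T cell receptor signalling to 1.19 in the very long neuronal and adhesion genes, around 8.14 for all genes, and single genes within a list spread far more widely.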

How the data were processed

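Chromatin of 8 samples was sequenced, and analysis started from the 2 deposited H3K27ac lists. The build was mm10, and the authors' tools, per the submitters' processing notes, included MACS2 2.2.2.20160309, ChIPseeker 11.16.1, Trimmomatic 0.38, Picard 0.118 and Bowtie 1.1.2. Information on parameters, control and pooling is not given in the sources used here. The score column deposited by the authors was taken to hold −log10 of q-values, inferred from its lowest value of 1.31 (−log10 of 0.05 is 1.30), and was used only within a list. Lists called with unlike control or depth differ in number and width of intervals.

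Entries repeating an interval at several summits were combined with the highest score, so 329623 EnPGC-1 entries became 253423 intervals and 84538 DMSO entries became 81522. Overlap required 1 bp. Genes, promoter windows and miRNAs came from RefSeq tables of GRCm38.p6, with strand for 16457 genes. No genome was used, so exons and introns were not told apart. Clopper-Pearson and Poisson 95% intervals were computed in Python 3.11.15 with numpy 2.4.6, pandas 2.3.3 and scipy 1.17.1, and figures with matplotlib 3.10.9. Counting was tested on simulated data, with 0 mismatches in 200 lists.

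Members, gene lists and alternatives were chosen with earlier results of these data known. The rule for named genes took Ppargc1a, the 10 genes with most members, the 10 densest and the 5 longest without a member among genes with 50 kb or more of deep body, the 2 densest (20 kb or more of deep body) and the sparsest of each list, and genes at the 5 highest scoring, widest and most summit-rich members and longest runs. A few of the genes it picked are left out of the text. Other genes were picked after their values were seen: Nfatc1, Nfatc2, Zap70, Tbx21, Gata3, Il7r, Ifngr1, Ppargc1b, Esrra, Esrrb, Esrrg, Ppara, Rxra, Tfam, Tfb1m, Sirt1, Ep300, Crebbp, Auts2, Nrxn3, Evl, Arrb1 and those of the printed windows.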

Additional observations from a re-analysis of the deposited data

How the results depend on the processing

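Of the summary values, the 3 ratios have a direction, and each stayed on its side of 1 under every alternative that gave it. Over the 10 summary values, 68 alternative values moved beyond counting error (for counts, by more than 1.5 times) and 21 did not. Each group of values below follows 1 order where they moved: the number of members, their share of EnPGC-1-only intervals, the share of deep gene body EnPGC-1 intervals without DMSO overlap, members per 100 kb, the share of genes holding a member, the density ratio of genes of 500 kb or more over 20 to 50 kb, median width, the share of internal starts in members, the 3' over 5' ratio, and the ratio of most over least crowded genes. With each list limited to scores from its own median these were 40959, 39.4%, 82.7%, 5.02, 64.3%, 0.271, 534 bp, 18.1%, 1.52 and 2.75. With equal numbers of highest scoring intervals they were 22314, 39.5%, 70.6%, 2.74, 52.5%, 0.264, 525 bp, 9.49%, 1.48 and 2.74. With intervals under 500 bp left out they were 41557, 39.997%, 83.6%, 5.10, 60.5%, 0.184, 728 bp, 1.56 (3' over 5') and 3.81 (crowding). With intervals within 1 kb merged they were 49461, 37.3%, 73.7%, 6.07, 69.5%, 0.408, 484 bp, 20.8%, 1.14 and 1.74. With no DMSO interval allowed within 1 kb, the values from the share of EnPGC-1-only intervals on were 38.4%, 64.4%, 7.70, 72.5%, 0.325, 456 bp, 21.2% and, for crowding, 2.26. With under 50% of an interval allowed to be covered by DMSO intervals, those from the share without overlap on were 86.4%, 10.3, 76.7%, 0.258, 500 bp, 33.7% and, for crowding, 2.92. At 2.5 kb from gene ends the shares were 44.5% and 75.7%, the density 9.50, the width 471 bp and the crowding ratio 2.69. At 10 kb they were 31.5% and 77.1%, with a density of 8.51, a length ratio of 0.295 and a width of 461 bp, and there was no 3' over 5' value. With chromosome X the share was 38.6%, the density 8.81, the genes holding a member 74.3% and the crowding ratio 2.72. The cause of these shifts was not tested, apart from the smaller or larger set of intervals that each alternative makes.

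The alternatives for internal starts, the 3' over 5' ratio and crowding were chosen after seeing the data. No paired analysis was possible because each treatment had 1 list without replicate columns, and for the same reason no replicate was left out. Depth limits what absence from a list means.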
